A study of Mus musculus with 16 samples.

Results

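Ly6c1, Ly6c2, Ly6a and Ly6e are 4 neighbouring mouse genes that encode small Ly6 family proteins of the lymphocyte surface. They were chosen by gene symbol from a deposited count table of 24421 genes. All 4 were in the table, and all 4 were among the 13554 genes that passed the filter on low counts and were tested.

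Ly6 proteins carry the folded, cysteine-rich Ly6/uPAR domain and are held in the outer leaflet of the membrane by a glycosylphosphatidylinositol (GPI) anchor, without a cytoplasmic tail. Ly6c1 and Ly6c2 encode nearly identical proteins that antibodies to the antigen Ly6C detect on monocytes, endothelial cells and many T cells. Ly6a encodes Sca-1, used as a marker of haematopoietic stem cells and of activated T cells, and Ly6e encodes the thymic shared antigen TSA-1, also called Sca-2. Interferons are known inducers of several genes of the family in lymphocytes.

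The libraries were RNA sequencing of T cells from lymph nodes of C57BL/6 mice, sorted as naive cells by absent CD25, high CD62L and low CD44. CD5, a surface receptor that is set during thymic selection and dampens signalling by the T cell receptor, divided each lineage further. The CD5hi gate took the third of the cells with most surface CD5, and the CD5lo gate the third with least. The 4 groups were CD4 CD5lo, CD4 CD5hi, CD8 CD5lo and CD8 CD5hi, with 4 biological replicates each and no further treatment or allele named in the labels. The sources used here do not give the age or sex of the mice or say whether replicates were separate mice or pools, so p-values measure the spread between these libraries.

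The 16 libraries held 71447252 to 93418385 counts (median 78528233). Cd5 averaged 255 and 1386 CPM (counts scaled for library size and composition) in CD4 CD5lo and CD5hi cells, and 200.4 and 498 CPM in CD8 CD5lo and CD5hi cells. Cd4 was at 971 to 1268 CPM in CD4 libraries, and Cd8a was at 1563 to 2140 CPM in CD8 libraries. In 3 libraries the B cell gene Cd74 exceeded 100 CPM: CD4 CD5lo replicate 3 (135 CPM), CD8 CD5lo replicate 3 (192 CPM) and CD8 CD5hi replicate 4 (319 CPM). Calls of the 4 genes that change without these 3 libraries are given with and without them. Counts of listed genes without these 3 libraries come from a separate fit, whose share over all genes is not given beside them. In bulk RNA, fewer cells carrying a transcript and less of it per cell cannot be told apart.

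All 4 genes are protein coding and lie on chromosome 15 (GRCm38, GENCODE vM21). Ly6e lies on the plus strand at chr15:74955051-74959905. Ly6a (chr15:74994877-74998031), Ly6c1 (chr15:75044018-75048830) and Ly6c2 (chr15:75108158-75111970) lie on the minus strand. A gap of 59327 bases separates Ly6c1 from Ly6c2. The longest coding transcript of each gene has 4 exons, and no other gene of the count table shares exonic bases with any of them.

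The coding regions of Ly6c1 and Ly6c2 are each 393 bases long and differ at 9 positions without a gap, an identity of 97.7%. The first 90 coding bases are shown because they hold 6 of these 9 differences. Capitals mark the bases that differ between the genes.
Ly6c1: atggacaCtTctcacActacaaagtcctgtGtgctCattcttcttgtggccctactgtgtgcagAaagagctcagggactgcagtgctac
Ly6c2: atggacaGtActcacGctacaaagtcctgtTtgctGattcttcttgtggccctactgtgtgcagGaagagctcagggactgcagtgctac
Over their longest coding transcripts 802 of 844 aligned columns were identical, with a longest shared run of 188 bases. Of all 50-base windows of the Ly6c1 transcript, 31.7% also occurred in that of Ly6c2, and 15.3% of 100-base windows did. Reads from such windows cannot be assigned to either gene by sequence, and the sources used here do not say how the authors' counting treated them. Levels of Ly6c1 and Ly6c2 are therefore uncertain as separate genes, and their sum is reported beside them. The Ly6c1 coding region was 81.8% identical to that of Ly6a and 49.5% identical to that of Ly6e.

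The 250 bases before 1 annotated transcription start of each Ly6c gene are shown because the 2 genes had opposite levels in the 2 lineages. They come from RefSeq (GRCm38.p6, minus strand), whose table of promoters matched these 2 of the 4 genes. It lists 2 promoters for each, and only the one nearest the GENCODE start of the gene was searched. Capitals mark matches to the motifs named after them.
Ly6c1, chr15:75048838-75049087: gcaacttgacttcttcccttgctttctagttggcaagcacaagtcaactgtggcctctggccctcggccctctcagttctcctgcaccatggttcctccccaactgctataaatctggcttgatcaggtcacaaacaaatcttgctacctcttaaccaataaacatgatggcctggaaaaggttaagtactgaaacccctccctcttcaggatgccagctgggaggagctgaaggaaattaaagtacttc
Ly6c2, chr15:75111972-75112221: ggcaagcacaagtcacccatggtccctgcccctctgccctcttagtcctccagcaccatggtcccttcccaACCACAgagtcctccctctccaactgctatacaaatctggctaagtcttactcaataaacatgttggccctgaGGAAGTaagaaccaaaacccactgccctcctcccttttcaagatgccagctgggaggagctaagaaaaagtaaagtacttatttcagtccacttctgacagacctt
Their best local alignment was 72.2% identical over 227 columns, with a longest shared run of 20 bases. Motifs were searched on both strands, and background shares refer to 32851 windows of the same length. The RUNX motif TGTGGT occurred once before Ly6c2 and not before Ly6c1 (14.0% of windows hold it). The ETS core GGAAGT occurred once before Ly6c2 and not before Ly6c1 (19.7% of windows). The interferon response element (GAAA, any 2 bases, GAAA; 2.98% of windows), the STAT motif TTCNNNGAA (7.02%), the T-box motif AGGTGT (11.8%) and the NF-kB motif (GGGA, any base, TTTCC; 0.356%) had no match in either window. These are letter matches within short windows, and no binding was measured.

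Ly6c1 was the Ly6c gene of CD4 cells and was lower at high CD5. It was at 132, 138, 121 and 101 CPM in CD4 CD5lo replicates 1 to 4 (mean 123 ± 16.5, SD, n = 4). In CD4 CD5hi replicates 1 to 4 it was at 29.7, 30.8, 32.03 and 20.7 CPM (28.3 ± 5.14, n = 4). Every CD4 CD5hi library was below every CD4 CD5lo library. In CD8 CD5lo replicates 1 to 4 Ly6c1 was at 1.25, 5.74, 3.36 and 37.5 CPM (12.0 ± 17.1, n = 4). In CD8 CD5hi replicates 1 to 4 it was at 0.643, 6.48, 0.715 and 60.8 CPM (17.2 ± 29.2, n = 4). Replicate 4 was far above the other CD8 libraries in both CD5 gates, and its values set the mean and SD of each CD8 group.

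Ly6c2 showed the opposite distribution, with the highest levels in CD8 CD5hi cells. In CD4 CD5lo replicates 1 to 4 it was at 2.496, 2.10, 8.86 and 2.31 CPM (3.94 ± 3.28, n = 4). In CD4 CD5hi replicates 1 to 4 it was at 4.67, 2.81, 8.25 and 2.43 CPM (4.54 ± 2.66, n = 4). The CD4 groups overlapped, and replicate 3 was the highest in each. In CD8 CD5lo replicates 1 to 4 Ly6c2 was at 196, 111, 226 and 76.1 CPM (152 ± 70.4, n = 4). In CD8 CD5hi replicates 1 to 4 it was at 551, 352, 571 and 284 CPM (439 ± 143, n = 4). The lowest CD8 CD5hi library was above the highest CD8 CD5lo library, and within each gate replicate 4 was the lowest and replicate 3 the highest.

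Ly6a, the Sca-1 gene, was highest in CD4 CD5lo cells and lowest in CD8 CD5hi cells. It was at 139.5, 124, 116 and 141 CPM in CD4 CD5lo replicates 1 to 4 (130.1 ± 12.4, n = 4). In CD4 CD5hi replicates 1 to 4 it was at 73.2, 67.0, 81.5 and 76.7 CPM (74.6 ± 6.10, n = 4). The CD4 gates did not overlap. In CD8 CD5lo replicates 1 to 4 Ly6a was at 46.6, 33.7, 52.5 and 52.6 CPM (46.4 ± 8.88, n = 4). In CD8 CD5hi replicates 1 to 4 it was at 34.5, 25.5, 46.4 and 40.2 CPM (36.7 ± 8.87, n = 4). The CD8 gates overlapped, and every CD8 library was below every CD4 library.

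Ly6e, the TSA-1 gene, was abundant in all 16 libraries. In CD4 CD5lo replicates 1 to 4 it was at 689, 533, 761 and 773 CPM (689 ± 111, n = 4). In CD4 CD5hi replicates 1 to 4 it was at 451, 462, 549 and 559.7 CPM (505 ± 56.8, n = 4). These gates overlapped, because CD4 CD5lo replicate 2 was below CD4 CD5hi replicates 3 and 4. In CD8 CD5lo replicates 1 to 4 Ly6e was at 546, 623, 658 and 667 CPM (623 ± 55.1, n = 4). In CD8 CD5hi replicates 1 to 4 it was at 573, 643, 696 and 694 CPM (652 ± 57.6, n = 4). The CD8 gates overlapped, and all CD8 CD5hi libraries were above all CD4 CD5hi libraries.

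**Figure D1:**
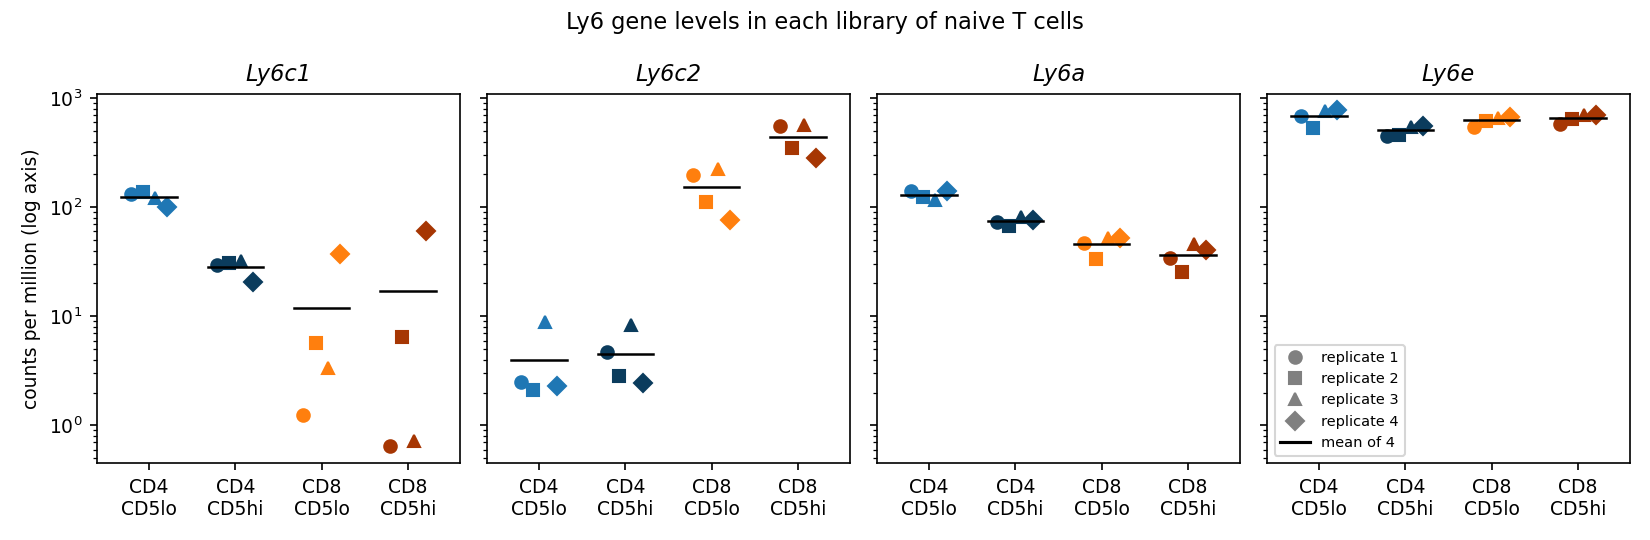
CPM of each gene (log axis) in the 16 libraries by group, with points for replicates 1 to 4 and a bar for the mean of each group of 4. Ly6c1 is high in CD4 cells, Ly6c2 is high in CD8 cells, and the CD8 libraries numbered 4 (37.5 and 60.8 CPM) stand above the others for Ly6c1.

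Levels of different genes were compared as CPM per kilobase of merged exons. In CD4 CD5lo cells the order was Ly6e (182 ± 29.2), Ly6a (108 ± 10.3), Ly6c1 (73.4 ± 9.85) and Ly6c2 (1.44 ± 1.197), each the mean level and SD of 4 libraries. In CD4 CD5hi cells the order was the same, with Ly6e at 134 ± 15.02, Ly6a at 61.9 ± 5.06, Ly6c1 at 16.9 ± 3.07 and Ly6c2 at 1.66 ± 0.97 CPM per kilobase (n = 4). In neither CD4 group did the ranges of neighbours in this order overlap. In CD8 CD5lo cells Ly6c2 moved to the second place (55.6 ± 25.7 CPM per kilobase), below Ly6e (165 ± 14.5) and above Ly6a (38.5 ± 7.37), and its range of 27.8 to 82.5 overlapped that of Ly6a, 28.0 to 43.7. In CD8 CD5hi cells Ly6c2 (160.4 ± 52.4 CPM per kilobase, range 103 to 208) overlapped Ly6e (172 ± 15.2, range 152 to 184), and Ly6a followed at 30.4 ± 7.36. The order depends on the transcript length assumed. With the longest coding transcripts Ly6c2 (535 CPM per kilobase) ranked above Ly6e (286) in CD8 CD5hi cells, and Ly6c1 (145.9) ranked above Ly6a (136) in CD4 CD5lo cells.

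The division of Ly6c counts between the 2 genes followed the lineage. Ly6c1 made up 98.1, 98.5, 93.2 and 97.8% of the Ly6c1 and Ly6c2 sum in CD4 CD5lo replicates 1 to 4 (96.9 ± 2.503%, n = 4). The share was 86.4, 91.6, 79.5 and 89.5% in CD4 CD5hi replicates 1 to 4 (86.8 ± 5.29%, n = 4). Each CD4 CD5hi library was below each CD4 CD5lo library (difference of the means -10.1 percentage points, two-sided exact permutation p = 0.0286, the smallest that 70 arrangements allow, and 0.0381 adjusted over 4 comparisons). In CD8 CD5lo replicates 1 to 4 the share of Ly6c1 was 0.636, 4.92, 1.46 and 33.0% (10.005 ± 15.4%, n = 4). In CD8 CD5hi replicates 1 to 4 it was 0.116, 1.81, 0.125 and 17.7% (4.93 ± 8.53%, n = 4). The CD8 gates overlapped (exact permutation p = 0.514, two-sided, n = 4 per gate). The share was lower in all CD8 libraries than in all CD4 libraries, by 86.9 percentage points at low CD5 and 81.8 at high CD5 (exact permutation p = 0.0286, two-sided, and 0.0381 adjusted, for each).

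**Figure D2:**
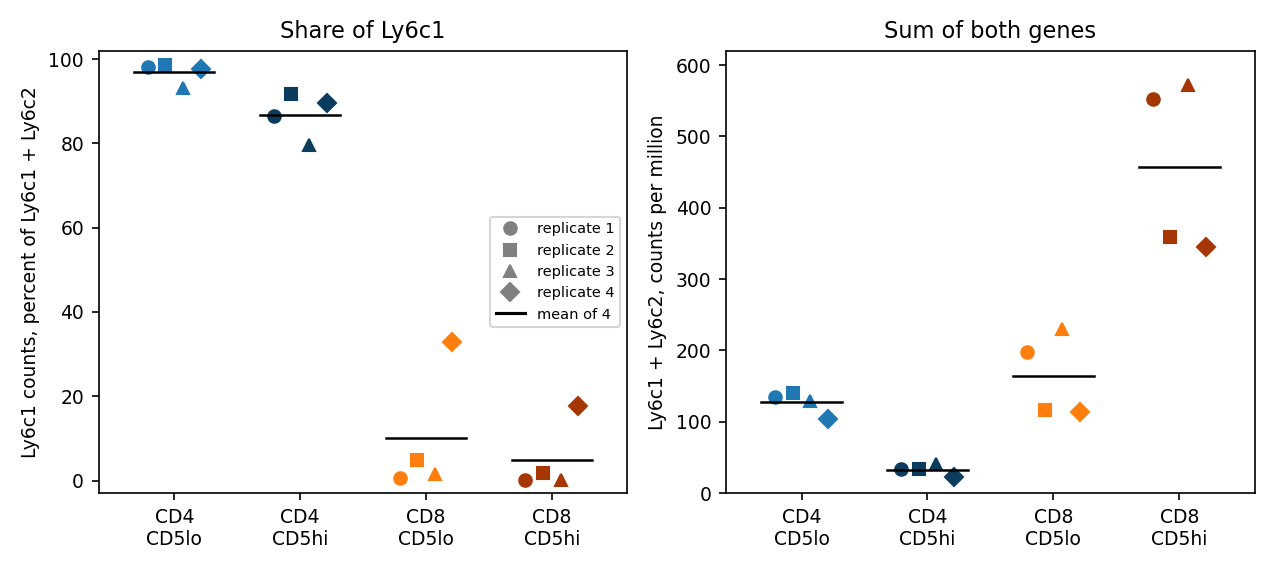
Left, counts of Ly6c1 as a percentage of the Ly6c1 and Ly6c2 sum; right, the sum in CPM, by group, with points for the 4 replicates and a bar for the mean. Ly6c1 makes up 79.5 to 98.5% of the sum in CD4 libraries and at most 33.0% in CD8 libraries, and the sum is lower in CD4 CD5hi than CD4 CD5lo cells and higher in CD8 CD5hi than CD8 CD5lo cells.

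The summed Ly6c level fell with CD5 in CD4 cells (mostly Ly6c1) and rose with CD5 in CD8 cells (mostly Ly6c2). The sum does not depend on how counted reads were divided between the pair, but it lacks any shared reads that were not counted. It was at 135, 141, 129.6 and 103 CPM in CD4 CD5lo replicates 1 to 4 (127 ± 16.5, n = 4). In CD4 CD5hi replicates 1 to 4 it was at 34.3, 33.6, 40.3 and 23.1 CPM (32.8 ± 7.12, n = 4). In CD8 CD5lo replicates 1 to 4 it was at 197, 117, 229 and 114 CPM (164 ± 58.2, n = 4). In CD8 CD5hi replicates 1 to 4 it was at 552, 358, 572 and 344 CPM (457 ± 122, n = 4). The gates did not overlap in either lineage. Fitted as 1 feature in place of the pair by edgeR's quasi-likelihood test, the sum had a log2 change of -1.95 ± 0.25 (SE) in CD4 cells (adjusted p = 0.000109) and 1.48 ± 0.24 in CD8 cells (adjusted p = 0.00105), with Benjamini-Hochberg adjustment over all genes. The difference between these 2 effects was 3.43 ± 0.34 (adjusted p = 0.000115). Between lineages the sum was 0.37 ± 0.24 higher on the log2 scale in CD8 cells at low CD5 (adjusted p = 0.345) and 3.797 ± 0.26 higher at high CD5 (adjusted p = 2.19e-08). Without the 3 libraries rich in Cd74 the difference between the effects was 3.75, and without both CD8 libraries numbered 4 it was 3.40.

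In CD4 cells, CD5hi against CD5lo, Ly6a and Ly6e fell, and Ly6c1 had the largest difference of the 4 genes. Of the 4 genes 2 passed the test, both lower, where 4.08% of all genes tested passed in either direction, 1.40% of them lower and 2.68% higher. Ly6a had a log2 change of -0.80 ± 0.16 (95% interval -1.14 to -0.46, 1.74-fold lower, adjusted p = 0.00725). It was lower in each of the 4 same-numbered pairs, by log2 ratios of -0.93, -0.89, -0.51 and -0.88. Ly6e had a log2 change of -0.45 ± 0.11 (1.36-fold lower, adjusted p = 0.0358), with ratios of -0.61, -0.21, -0.47 and -0.47. The change of Ly6e did not pass with only the 8 CD4 libraries (-0.45, adjusted p = 0.0835) or without the 3 libraries rich in Cd74 (-0.39, adjusted p = 0.130). Leaving out 1 library at a time also ended the Ly6e call for CD4 CD5lo replicates 1, 3 and 4, CD4 CD5hi replicates 1 and 2, CD8 CD5lo replicate 2 and CD8 CD5hi replicate 2 (adjusted p from 0.0503 to 0.128).

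Ly6c1 in CD4 cells was 4.35-fold lower at high CD5, but the fit that shares 1 spread over all 16 libraries gave a log2 change of -2.12 ± 1.11 (95% interval -4.47 to 0.23) that did not pass (adjusted p = 0.483). The spread of Ly6c1 among CD8 libraries, given above, enters that fit. With only the 8 CD4 libraries, a fit in which 3.55% of genes passed, the log2 change was -2.13 ± 0.15 (adjusted p = 2.77e-05), and without both CD8 libraries numbered 4 the SE was 0.55 (adjusted p = 0.0459). The same-numbered log2 ratios were -2.16, -2.17, -1.91 and -2.28, and an exact permutation test of its log2 CPM gave p = 0.0286 (two-sided, 0.0571 adjusted over 4 comparisons). Ly6c1 and Ly6a were the 2 genes of the 4 without overlap between the CD4 gates, against 9.29% of all genes tested. Ly6c2 had a log2 change of 0.20 ± 0.51 (adjusted p = 0.985) at its low level in CD4 cells.

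Some markers of regulatory T cells, but not all, had higher levels in the CD5hi libraries. Foxp3, the defining factor of these cells, was at 4.05, 3.98, 5.96 and 5.86 CPM in CD4 CD5lo replicates 1 to 4 and at 14.4, 17.8, 15.4 and 22.1 CPM in CD4 CD5hi replicates 1 to 4. Foxp3, Ikzf2 and Tnfrsf4 did not overlap between the CD4 gates, and Il2ra, Ctla4, Tnfrsf18 and Lrrc32 did. Of all genes tested 9.29% did not overlap between the CD4 gates. The summed level of these 7 genes was 80.8 to 105 CPM in CD4 CD5lo and 132 to 157 CPM in CD4 CD5hi libraries, without overlap. Its largest part was Tnfrsf18, at 43.3 to 57.2 and 55.9 to 73.4 CPM. In CD8 cells the sum was 76.4 to 113 CPM at low and 118 to 138 CPM at high CD5, also without overlap. There Ikzf2 (8.68 to 19.2 against 26.2 to 49.8 CPM) and Tnfrsf18 did not overlap between the gates, against 14.8% of all genes tested. Foxp3 (1.45 to 4.16 against 1.47 to 8.31 CPM), Il2ra, Ctla4, Tnfrsf4 and Lrrc32 overlapped between the CD8 gates. The part of regulatory T cells in the changes of Ly6c1, Ly6a and Ly6e was not tested.

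In CD8 cells, CD5hi against CD5lo, Ly6c2 was 2.89-fold higher and none of the 4 genes passed edgeR's test without a replicate block. Of all genes tested 9.46% passed it (5.95% higher and 3.51% lower). Before adjustment 1 of the 4, Ly6c2, was under 0.05. Its log2 change was 1.53 ± 0.47 (95% interval 0.53 to 2.53, adjusted p = 0.0537), and the same-numbered log2 ratios were 1.49, 1.67, 1.34 and 1.90. Ly6c2 was the only one of the 4 without overlap between the CD8 gates, against 14.8% of all genes tested, and an exact permutation test of its log2 CPM gave p = 0.0286 (two-sided, 0.0381 adjusted). Its adjusted p was 0.00587 without the 3 libraries rich in Cd74 (log2 change 1.96 ± 0.40), 0.0374 with only the 8 CD8 libraries (where 6.17% of genes passed), 0.00495 with limma voom, 0.0391 with halved counts, 0.0684 with DESeq2 and 0.104 without both CD8 libraries numbered 4. Leaving out CD4 CD5lo replicate 3, CD4 CD5hi replicate 3, CD8 CD5lo replicate 3 or CD8 CD5hi replicate 4 also moved it under the threshold (0.0164, 0.0427, 0.0458 and 0.0363). With the replicate number as a block Ly6c2 passed (1.61 ± 0.19, adjusted p = 3.75e-05), in a fit that called 3390 of 13554 genes. Same-numbered CD8 libraries had correlations of 0.56, 0.25, 0.03 and -0.04, so the number does not pair every library there.

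Ly6a in CD8 cells had a log2 change of -0.34 ± 0.16 (95% interval -0.68 to 0.00, adjusted p = 0.226). It was lower in each same-numbered pair, with log2 ratios of -0.43, -0.40, -0.18 and -0.39, and passed with the replicate block (adjusted p = 0.0364). Ly6e in CD8 cells differed by 0.06 ± 0.11 (adjusted p = 0.800), with ratios of 0.07, 0.04, 0.08 and 0.06. Ly6c1 in CD8 cells gave 0.51 ± 1.08 (adjusted p = 0.836), and its pairs disagreed in sign (-0.97, 0.17, -2.23 and 0.70). Without both libraries numbered 4 its change in CD8 cells was -0.40.

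The CD5 effects in CD8 and CD4 cells were set against each other by an interaction term. None of the 4 genes passed it in edgeR, where 0.310% of all genes tested did, or in limma voom. In DESeq2 Ly6c2, Ly6a and Ly6e did not pass, and Ly6c1 had no adjusted p. Ly6e, with a difference of 0.51 ± 0.16 on the log2 scale (95% interval 0.17 to 0.85, adjusted p = 0.282), was the 1 gene of the 4 under 0.05 before adjustment. With the replicate number as a block, where 2.80% of all genes passed, Ly6e (adjusted p = 0.0167) and Ly6c2 (adjusted p = 0.0235) passed. The difference was 2.63 ± 1.54 for Ly6c1 (adjusted p = 0.805) and 1.33 ± 0.69 for Ly6c2 (adjusted p = 0.729), whereas their sum passed. The Ly6a effects differed by 0.46 ± 0.23 (adjusted p = 0.687).

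**Figure D3:**
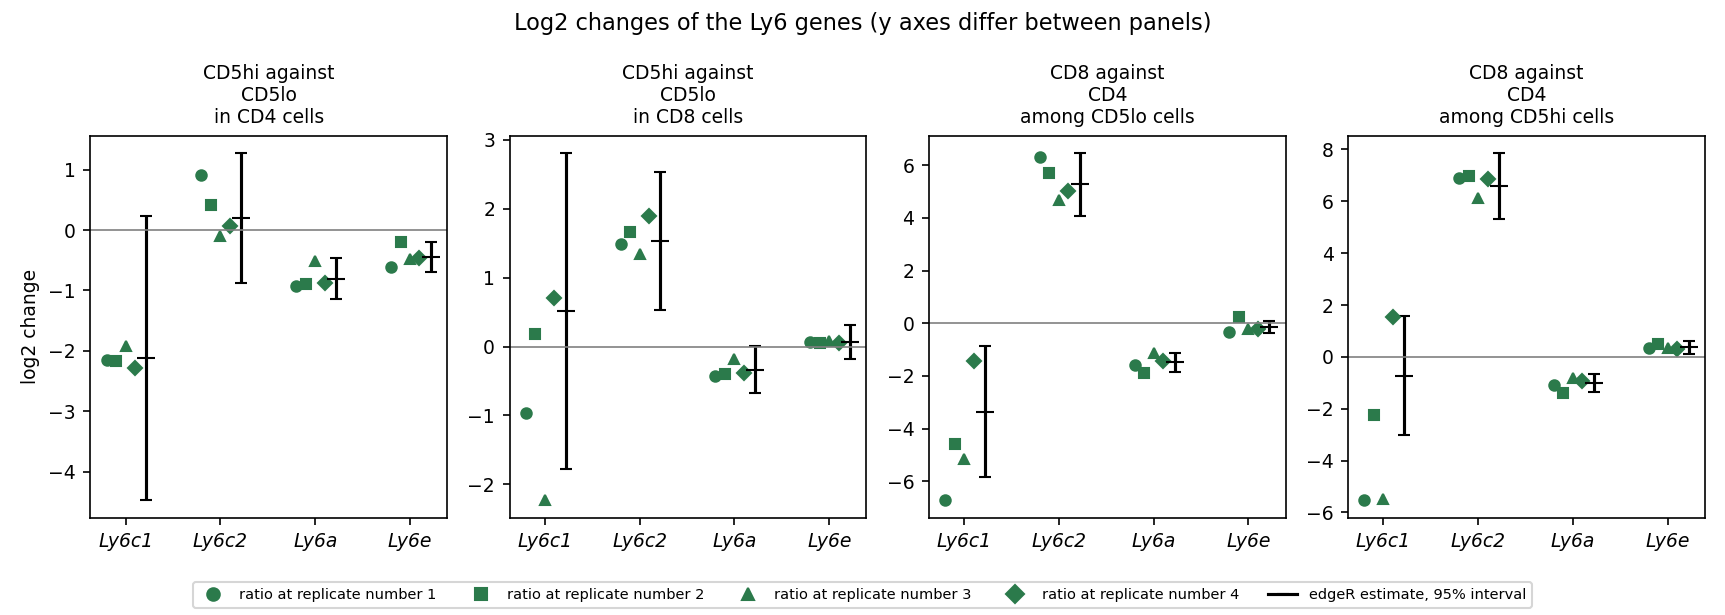
Log2 ratio between same-numbered libraries (points, replicate numbers 1 to 4) and edgeR's estimate with its 95% interval (black) for each gene in 4 comparisons, with y axes that differ between panels. Ly6c2 is far above 0 in both comparisons of CD8 against CD4 cells (5.27 and 6.60), all Ly6a points are below 0, and Ly6c1 has the widest intervals.

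Between lineages at low CD5, Ly6c2 rose in CD8 cells and Ly6a fell. Both calls stood among 4 genes, where 19.5% of all genes tested passed. Ly6c2 was 38.6-fold higher in CD8 than in CD4 cells (log2 change 5.27 ± 0.57, adjusted p = 3.50e-06), and Ly6a was 2.81-fold lower (-1.49 ± 0.16, adjusted p = 4.51e-06). Ly6c1 was 10.2-fold lower (-3.36 ± 1.17, adjusted p = 0.0555) and passed with the replicate number as a block (-4.58 ± 0.96, adjusted p = 0.00189), a fit in which 32.1% of all genes passed. It also passed without CD8 CD5lo replicate 4 (-5.15, adjusted p = 0.0102), without CD8 CD5hi replicates 1, 3 or 4 (0.0305, 0.0357 and 0.0105) and without the 3 libraries rich in Cd74 (-3.05, adjusted p = 0.0430). Ly6e differed by -0.14 ± 0.11 (adjusted p = 0.474). Ly6c1, Ly6c2 and Ly6a did not overlap between the lineages, against 22.3% of all genes tested.

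At high CD5, Ly6c2 and Ly6e rose in CD8 cells and Ly6a fell, 3 calls among 4 genes where 30.3% of all genes passed. Ly6c2 was 96.9-fold higher in CD8 cells (log2 change 6.60 ± 0.60, adjusted p = 4.16e-07). Ly6a was 2.03-fold lower (-1.02 ± 0.16, adjusted p = 0.000156). Ly6e was 1.29-fold higher (0.37 ± 0.11, adjusted p = 0.0226), with same-numbered ratios of 0.35, 0.48, 0.34 and 0.31. The Ly6e call was lost without CD4 CD5hi replicate 1 or 2 (adjusted p = 0.0628 and 0.0578), without CD8 CD5hi replicate 3 or 4 (0.0511 and 0.0537) and without the 3 libraries rich in Cd74 (0.0504). These 3 genes did not overlap between the lineages, against 28.9% of all genes tested.

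Ly6c1 at high CD5 overlapped between the lineages because of 1 library. Its log2 change was -0.72 ± 1.08 (adjusted p = 0.663) with all libraries and -3.42 ± 0.99 (adjusted p = 0.0158) without CD8 CD5hi replicate 4. The value was -3.41 (adjusted p = 0.0160) without the 3 libraries rich in Cd74, of which that library is one. The same-numbered log2 ratios were -5.53, -2.25, -5.48 and 1.55.

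Markers of other cells were read beside the libraries that stood apart. Cd4 was at 0.568, 2.51, 27.2 and 1.13 CPM in CD8 CD5lo replicates 1 to 4 and at 0.54, 0.75, 0.42 and 62.2 CPM in CD8 CD5hi replicates 1 to 4. Of the 2 CD8 libraries with high Ly6c1, CD8 CD5hi replicate 4 thus had raised Cd4 and CD8 CD5lo replicate 4 did not, while CD8 CD5lo replicate 3 had raised Cd4 and 3.36 CPM of Ly6c1. Cd8a was at 2.79, 2.02, 11.4 and 5.49 CPM in CD4 CD5lo replicates 1 to 4 and at 0.69, 1.15, 1.65 and 2.07 CPM in CD4 CD5hi replicates 1 to 4. The CD4 libraries numbered 3, highest for Ly6c2, thus had 11.4 and 1.65 CPM of Cd8a.

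Ly6C also marks monocytes, and Ly6c1 endothelial cells. The summed level of 13 monocyte and macrophage genes was 183 to 268 CPM over all 16 libraries, mostly Ctss, Ms4a6c and Cebpb, and all 13 were detected. Of its members, Cd14 did not exceed 0.34 and Fcgr1 0.15 CPM. Lyz2, the lysozyme gene of myeloid cells, was at 10.7 CPM in CD8 CD5hi replicate 4, at 6.64 in CD8 CD5lo replicate 3 and at 3.37 in CD4 CD5lo replicate 3, the 3 libraries rich in Cd74, and did not exceed 1.05 CPM in any other library. Cybb reached 7.67 CPM in the CD8 CD5hi group.

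The summed level of 10 endothelial genes was 230.4 to 262 CPM in CD4 CD5lo, 262 to 272 in CD4 CD5hi, 145 to 169 in CD8 CD5lo and 145 to 171 in CD8 CD5hi libraries. Nearly all of it was Pecam1, an adhesion molecule gene that T cells also express, at 229 to 271 CPM in CD4 and 142 to 170 CPM in CD8 libraries. Cdh5 did not exceed 1.81 CPM, and Cldn5 and Emcn were at 0 in all 16 libraries. The part of monocytes and endothelial cells in the levels of the 4 genes was not tested. Of 14 B cell genes all were detected, with sums of 21.1 to 361 CPM in CD4 CD5lo, 10.99 to 37.2 in CD4 CD5hi, 36.9 to 567 in CD8 CD5lo and 33.9 to 916 in CD8 CD5hi libraries. The part of these cells in the levels of Ly6 genes was not tested beyond leaving out the 3 libraries.

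Of 40 other genes of the Ly6/uPAR family, 31 were in the table and 10 were tested. In CD4 cells, where 4.08% of all genes passed, 0 of these 10 were higher and 1 was lower at high CD5. The median log2 change was -0.29, against -0.01 over all genes tested. With the replicate block, where 9.68% of all genes passed, 1 was higher and 2 were lower. In CD8 cells, where 9.46% of all genes passed, the counts were 0 and 1 (median -0.06, against 0.00). They were 0 and 2 without the 3 libraries rich in Cd74 (median -0.26). The gene that fell in both was Lypd6b, from 39.2 to 31.9 CPM in CD4 cells (-0.30 ± 0.08, adjusted p = 0.0336) and from 41.5 to 33.8 CPM in CD8 cells (-0.30 ± 0.08, adjusted p = 0.0197). Ly6i, which lies between Ly6e and Ly6a, did not exceed a group mean of 0.42 CPM. Ly6d, a B cell antigen gene, did not exceed a group mean of 3.44 CPM, and reached 12.3 CPM in a CD8 CD5hi library.

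Between lineages 1 of the 10 family genes was higher in CD8 cells and 2 were lower, at low and at high CD5 alike in number. Of all genes 19.5% passed at low CD5 and 30.3% at high CD5. With the replicate block, where 32.1 and 46.7% of all genes passed, 2 of the 10 were higher and 3 lower in each comparison. Without the 3 libraries rich in Cd74 the counts were 1 and 3 at low CD5. Plaur, the urokinase receptor gene, rose from 9.13 to 24.4 CPM at low CD5 (1.42 ± 0.42, adjusted p = 0.0255). Ly6g5b rose at high CD5 (0.59 ± 0.17, adjusted p = 0.0124). Cd177 and Lypd3 were lower in CD8 cells, at group means of at most 1.19 and 0.53 CPM.

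Interferon-stimulated genes were read because Ly6 genes are among the known targets of interferon. In CD4 cells 0 of the 45 listed genes were higher and 8 were lower at high CD5 (median log2 change -0.05, against -0.01 over all genes, of which 1.40% were lower). They included Igtp (-0.48 ± 0.06, adjusted p = 0.000101), Gbp2 (-0.40 ± 0.07, adjusted p = 0.00315), Gbp3 (-0.50 ± 0.10, adjusted p = 0.00900) and Tgtp1 (-0.61 ± 0.14, adjusted p = 0.0167), which encode interferon-induced GTPases. In CD8 cells 0 were higher and 3 were lower (median -0.07, against 0.00): Igtp (-0.38, adjusted p = 0.000852), Irf9 (-0.29, adjusted p = 0.0272) and Irgm2 (-0.43, adjusted p = 0.0319). Of all genes tested 3.51% were lower in CD8 cells. Without the 3 libraries rich in Cd74, 2 of the 45 were lower in CD8 cells and the median was 0.11. The log2 changes of the 45 ran from -0.86 to 0.37 in CD4 cells and from -0.55 to 0.30 in CD8 cells.

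Set among these 45 genes, Ly6c1 in CD4 cells was below all of them. In CD4 cells 1 of the 45 had a lower change than Ly6a, 6 than Ly6e and 43 than Ly6c2. In CD8 cells Ly6c1 and Ly6c2 were above all 45, 4 had a lower change than Ly6a, and 32 had a lower change than Ly6e. The CD8 change of Ly6c1 was 0.51 ± 1.08, and it was -0.40 without both CD8 libraries numbered 4. The plot of CD4 against CD8 changes shows these places. No gene's place was tested.

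**Figure D4:**
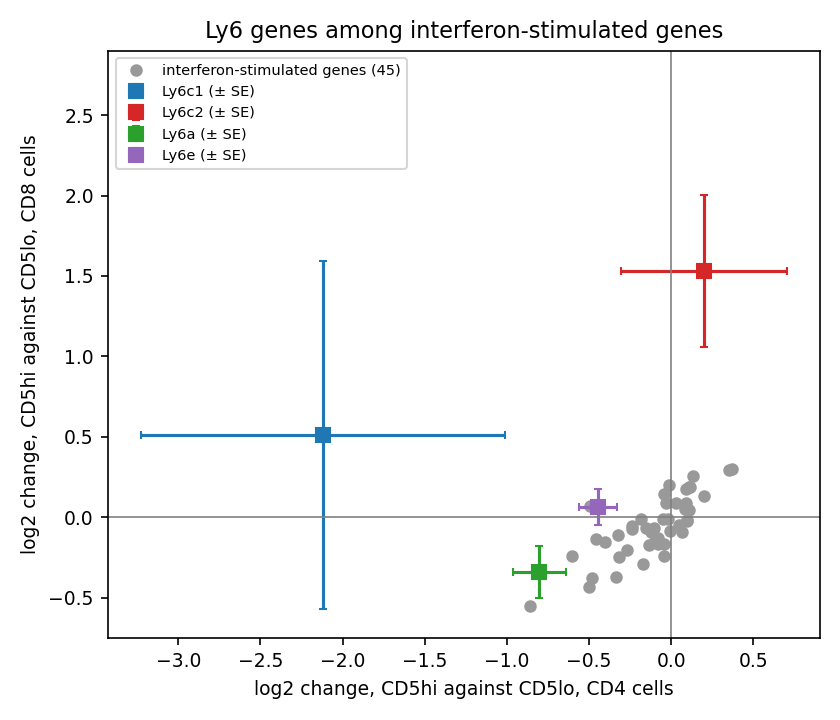
Log2 change from CD5lo to CD5hi in CD4 cells (x axis) and in CD8 cells (y axis) for 45 interferon-stimulated genes (grey) and the 4 Ly6 genes (coloured, with SE). The listed genes lie between -0.86 and 0.37 on the x axis, Ly6a lies at their lower end, and Ly6c1 far to the left with wide errors. On the y axis Ly6c1 and Ly6c2 lie above all of the listed genes.

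Of 15 genes of interferon receptors and JAK-STAT signalling, 0 were higher and 3 lower in CD4 CD5hi cells (median -0.04), where 4.08% of all genes passed. With the replicate block, where 9.68% of all genes passed, 2 were higher and 4 lower. Without the 3 libraries rich in Cd74 the counts were 0 and 2 (median 0.02). Socs3, an inhibitor of cytokine signalling, fell by 0.87 ± 0.14 on the log2 scale (adjusted p = 0.00153), followed by the transcription factor gene Irf1 (-0.35, adjusted p = 0.0156). In CD8 CD5hi cells, where 9.46% of all genes passed, 0 of the 15 were higher and 2 lower (median -0.08). These were Socs3 (-1.33 ± 0.15, adjusted p = 4.51e-05) and Irf9. Without the 3 libraries the counts were 1 and 1. Between lineages 2 of the 15 were higher and 0 lower at low CD5, and 3 and 5 at high CD5, against 19.5 and 30.3% of all genes. With the block, where 32.1 and 46.7% of all genes passed, the counts were 4 and 1, and 5 and 5. Without the 3 libraries they were 1 and 0, and 5 and 5.

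Between lineages, interferon-stimulated genes were mixed. At low CD5, where 19.5% of all genes passed, 10 of 45 were higher and 3 lower in CD8 cells. At high CD5, where 30.3% of all genes passed, 11 were higher and 4 lower. With the replicate block the counts were 17 and 5 at low CD5, and 19 and 9 at high CD5. In that fit 32.1 and 46.7% of all genes passed. The guanylate-binding protein gene Gbp3 was higher at low and high CD5 (1.01 ± 0.10 and 1.58 ± 0.10), and Ifit2 was lower (-0.87 ± 0.10 and -0.90 ± 0.10). The receptor subunit gene Ifnar2 was higher in CD8 cells (0.56 ± 0.06 and 0.36 ± 0.06).

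The machinery of the GPI anchor was read because all 4 proteins need it. Of 29 tested genes of GPI synthesis, attachment and remodelling, 0 were higher and 1 lower in CD4 CD5hi cells (median 0.01, and -0.05 without the 3 libraries rich in Cd74), near the 4.08% of all genes that passed. None passed in CD8 cells (median 0.04), where 9.46% of all genes did. The gene that fell was Piga, a subunit of the enzyme of the first step (-0.43 ± 0.12, adjusted p = 0.0440). Between lineages 4 were higher and 0 lower in CD8 cells at low CD5, and 4 and 2 at high CD5. Of all genes 19.5 and 30.3% passed there. With the replicate block, where 32.1 and 46.7% of all genes passed, the counts were 5 and 2, and 8 and 4. Piga was higher in CD8 cells at low and at high CD5 (0.79 ± 0.11 and 1.02 ± 0.12).

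Of 13 other GPI-anchored proteins of T cells tested, 3 were higher and 2 lower in CD4 CD5hi cells (median -0.01), where 2.68% of all genes were higher and 1.40% lower. Without the 3 libraries rich in Cd74 the counts were 2 and 2 (median 0.38). In CD8 CD5hi cells they were 3 and 2 (median 0.31), where 5.95% of all genes were higher and 3.51% lower. Izumo1r, which encodes folate receptor 4, rose by 2.43 ± 0.15 in CD4 cells (adjusted p = 6.08e-08) and by 1.01 ± 0.14 in CD8 cells (adjusted p = 0.000339). Thy1, which encodes a pan-T cell surface glycoprotein, fell by 0.84 ± 0.09 in CD4 cells (adjusted p = 3.33e-05) and by 0.44 ± 0.09 in CD8 cells (adjusted p = 0.00682). The interaction passed for Izumo1r (-1.42 ± 0.20, adjusted p = 0.00662) and for Nt5e, the gene of CD73 (-1.43 ± 0.23, adjusted p = 0.0172). Between lineages 5 of 13 were higher and 1 lower in CD8 cells at low CD5, and 6 and 2 at high CD5 (8 and 2, and 10 and 2, with the block). The shares of all genes that passed were 19.5% at low and 30.3% at high CD5, and 32.1 and 46.7% with the block.

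Ly6C and Sca-1 are used as markers of activated or memory T cells, so genes of that state were listed as well. Of 31 effector and memory genes tested, 4 were higher and 4 lower in CD4 CD5hi cells (median -0.26), where 2.68% of all genes were higher and 1.40% lower. Without the 3 libraries rich in Cd74 the counts were again 4 and 4 and the median was -0.01. Il2rb, a receptor chain of interleukin-2, was higher (1.92 ± 0.24) and the protease gene Gzma was lower (-3.03 ± 0.43). In CD8 CD5hi cells, where 5.95% of all genes were higher and 3.51% lower, 6 were higher and 2 lower (median 0.67). The 6 higher genes included Anxa2 (1.94 ± 0.19), the chemokine gene Xcl1 (3.43 ± 0.47) and Eomes (1.41 ± 0.21), which encodes a T-box factor of memory CD8 cells. Without the 3 libraries rich in Cd74 the counts were 13 and 2, in a fit whose share over all genes is not given here. Between lineages 18 of the 31 were higher and 2 lower in CD8 cells at low CD5, and 21 and 2 at high CD5 (medians 1.23 and 2.54), where 19.5 and 30.3% of all genes passed.

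Cd44 itself, the gate for naive cells, averaged 6.45, 5.85, 5.81 and 14.6 CPM in CD4 CD5lo, CD4 CD5hi, CD8 CD5lo and CD8 CD5hi cells. Of 13 genes of naive cells and recent thymic emigrants, 0 were higher and 2 lower at high CD5 in CD4 cells (median -0.06, and 0.02 without the 3 libraries rich in Cd74), and likewise in CD8 cells (median -0.23), where 1.40 and 3.51% of all genes were lower. Both times these were Dntt (-2.65 ± 0.31 and -2.94 ± 0.31), the template-independent polymerase of developing lymphocytes, and the chemokine receptor gene Ccr9 (-1.98 ± 0.19 and -1.19 ± 0.18). Between lineages 2 of 13 were higher and 3 lower at low CD5, and 2 and 6 at high CD5. Of all genes 19.5 and 30.3% passed there. With the block, where 32.1 and 46.7% of all genes passed, the counts were 4 and 7, and 3 and 7. Without the 3 libraries the counts at low CD5 were 1 and 2.

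The genes whose pattern over the 16 libraries was most like each Ly6 gene were ranked by the root-mean-square difference of log2 CPM, centred per gene, among 9008 genes. Nearest to Ly6c1 was Pdlim4 (1.504, against the SD of 2.57 of Ly6c1 itself), at group means of 99.1, 27.0, 5.72 and 1.32 CPM in CD4 CD5lo, CD4 CD5hi, CD8 CD5lo and CD8 CD5hi cells, followed by Adh1 (1.65), Igsf23 (1.65) and Aldh2 (1.67). Nearest to Ly6c2 (SD 3.15) were Samd3 (0.79), the chemokine receptor gene Cxcr6 (0.84), Plekhg3 (0.89) and Myo1f (0.91). Cxcr6 was at group means of 1.05, 0.951, 67.5 and 89.95 CPM in the same order. Nearest to Ly6a (SD 0.74) were Lrp8 (0.27), Sgms1 (0.28), Amz1 (0.29) and Nacc2 (0.31), and nearest to Ly6e (SD 0.23) were Dym, Hirip3 and Ttc7b (0.14 each) and Fam117a (0.15). By this measure no gene came within 1 log2 unit of Ly6c1. The CD8 libraries numbered 4, with 37.5 and 60.8 CPM of Ly6c1, enter that distance, and their part in it was not tested. With a minimum mean of 20 CPM the nearest genes were Pdlim4, Cxcr6 and Sgms1 for Ly6c1, Ly6c2 and Ly6a, with partly other followers. The genes nearest to Ly6e were then the same.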

How the data were processed

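The deposited values were raw counts, 1 table of whole numbers per gene with a column per sample (unused columns 0). The submitters' processing notes name the assembly mm10 and the tools DESeq2, featureCounts 1.4.6-p3 and STAR 2.5.2a. Per the labels' protocols, RNA came from TRIzol and RNeasy extraction, and kits were TruSeq stranded mRNA or TruSeq RNA v2. The kit of each sample, the strand setting and the treatment of multi-mapping reads were not given in the sources used here. The design text names 2 technical replicates, and each sample had 1 column. Libraries within a group differed beyond sampling noise (28.6 to 203 chi-square units per degree of freedom). Of low counts (1 to 9), 73.9 to 80.5% were even numbers, and of those from 1000 upwards 49.2 to 51.3% were, so halved counts were added as an alternative.

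Groups came from the labels. The model was fitted in R 4.3.3 with edgeR 4.0.16, using TMM factors, the filterByExpr filter (at least 10 counts, 15 in total), a term for each group across 16 libraries with 12 residual degrees of freedom, the quasi-likelihood F test and Benjamini-Hochberg adjustment over 13554 genes, with a threshold of 0.05. SE is the size of the log2 change over the square root of F. Tests are two-sided. Alternatives used limma 3.58.1 (voom) and DESeq2 1.42.0, other scalings and filters, the groups of a comparison alone, a replicate block and single libraries left out. Permutation tests, the sum under the block and with libraries left out, and the 2 sets of libraries left out together were added after seeing the data. The test was checked on simulated data.

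The members and gene lists were chosen with earlier results of these data known. Besides the 4 genes, the text names up to 4 genes per list by adjusted p, any tested Ly6/uPAR gene, and the 4 nearest genes by pattern with a mean of at least 5 CPM. Same-numbered libraries deviated together in CD4 cells (correlations 0.48, 0.25, 0.53 and 0.34) and between lineages (0.20 to 0.70 at low CD5, 0.23 to 0.54 at high CD5), so the blocked value is given where it changes a call. With the block in CD4 cells (9.68% of all genes passed), 0 interferon-stimulated genes were higher and 11 lower. The counts were 4 and 2 for other GPI-anchored proteins, 5 and 6 for effector and memory genes, and 1 and 2 for naive genes. Between lineages those of effector and memory genes were 19 and 2 at low CD5, and 23 and 3 at high CD5 (32.1 and 46.7% of all genes). Values of 1 listed gene are not reported here.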

Additional observations from a re-analysis of the deposited data

Results flagged for a closer look

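In 20 groups of 4 libraries, 6 held a library far from the other 3. The rule marks about 1 in 20 independent groups by chance, but these groups are not independent. The share of Ly6c1 comes from the same counts as Ly6c1 and Ly6c2, and it flagged the same libraries as they did. Ly6c1 was at 37.5 CPM in CD8 CD5lo replicate 4, where the next library had 5.74, and at 60.8 CPM in CD8 CD5hi replicate 4, where the next had 6.48. The share of Ly6c1 in the Ly6c1 and Ly6c2 sum was 33.0% and 17.7% in these libraries, with the next at 4.92% and 1.81%. Both carry the replicate number 4, Cd4 was at 1.13 and 62.2 CPM in them, and Ly6c2 was lowest of its group in each. In CD4 CD5lo replicate 3, Ly6c2 was at 8.86 CPM (next 2.496) and the share of Ly6c1 was 93.2% (next 97.8%). Cd8a was at 11.4 CPM in that library.

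The CD5 effect on the Ly6c1 and Ly6c2 sum differed between CD8 and CD4 cells by 3.43 on the log2 scale (edgeR, adjusted p = 0.000115). For Ly6e the difference was 0.51 (adjusted p = 0.282, not passed). Every same-numbered log2 ratio of Ly6e was below 0 in CD4 cells (-0.61 to -0.21) and above 0 in CD8 cells (0.04 to 0.08). The share of all genes with such signs is not given here, and the number does not pair every CD8 library.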

How the results depend on the processing

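Under all alternatives run, Ly6a in CD4 cells kept its direction and its call, and so did the sum of Ly6c1 and Ly6c2 in every comparison where it passed. The number of the 4 genes called in CD4 cells was 2, 1 without the 3 libraries rich in Cd74, and 1 to 2 with single libraries left out. In CD8 cells it was 0, against 1 with only the 8 CD8 libraries, with limma voom, with halved counts, without the 3 libraries rich in Cd74 and with the pair summed, and 0 to 1 with single libraries left out. For the difference of the CD5 effects it was 0, and 1 with the pair summed. At low CD5 between lineages it was 2, and 1 with the pair summed. There it was 3, with Ly6c1 added, with the block, only those libraries, limma voom, halved counts, without the 3 libraries and without both CD8 libraries numbered 4.

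Some log2 changes turned in sign, and the cause was not tested. Ly6c1 in CD8 cells (0.51) was -0.67 with limma voom, -2.48 without the 3 libraries rich in Cd74, -0.40 without both libraries numbered 4, -0.37 with the replicate block in the 8 CD8 libraries, and -2.19 (without CD8 CD5hi replicate 4) to 2.32 with single libraries left out. The difference of effects for Ly6c1 (2.63) was -0.35 without the 3 libraries and -0.068 (without CD8 CD5hi replicate 4) to 4.44 with single libraries left out. Ly6c2 in CD4 cells (0.20) ranged from -0.26 to 0.98 with single libraries left out. DESeq2 gave no adjusted p for Ly6c1. Without both CD8 libraries numbered 4, Ly6e lost its call in CD4 cells (adjusted p = 0.0506) and between lineages at high CD5 (0.0619).

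With the replicate block the number of the 4 called was 2 in CD8 cells, also with only those libraries (2), and 2 for the difference of effects. Ly6c2 in CD8 cells was then 1.61 (adjusted p = 3.75e-05) and Ly6a passed (adjusted p = 0.0364). For the difference of effects Ly6c2 (adjusted p = 0.0235) and Ly6e (0.0167) passed. Same-numbered CD8 libraries had correlations of 0.56, 0.25, 0.03 and -0.04, so the number does not pair every library there. Among all 16 libraries 15 correlated best with one of their own number.

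Over all genes, 553 were called in CD4 cells, against 1312 with the block and 1514 with the block in those libraries. In CD8 cells the count was 1282, against 3390, 2957, 813 with only those libraries, 811 without CD8 CD5lo replicate 4 and 763 without CD8 CD5hi replicate 2. The difference of effects gave 42, against 379 with the block, 209 with DESeq2, 129 without the 3 libraries, 107 without both numbered 4, and 8 to 165 with single libraries left out. Between lineages it was 2638 (4345 with the block, 4427 with the block in those libraries) at low CD5 and 4111 (6336 with the block) at high CD5. The lowest count of any of the 4 genes was 48 (Ly6c1 in CD8 CD5hi replicate 1), and there counting error limits the level most.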
